A study of Homo sapiens with 12 samples.

Results

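The genes described are IL1R2, NLRP4, ACTL8, DTX3, FAM129A, NAPSB and DHRS2, which make up 7 of the 26231 genes in the authors' normalized table and are all among the 11968 genes tested. They were selected on measured values, with earlier results of these libraries in view: reads were present in control libraries and nearly absent from SH2 libraries, or the level changed within control cells. No numerical threshold was set. The choice used the level in SH2 against control cells and in treated against untreated control cells, so those values are descriptions and carry no test. Treated against untreated SH2 cells was not used for the choice. Of these grounds, DHRS2 met the change within control cells, with 1 count in the treated and 102 in the untreated library of set 4; it was not on in control cells alone, since it had reads in all 8 SH2 libraries and was lower in 3 of the 4 control libraries than in any SH2 library.

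The study measured RNA of 697 (EU3), a human B-cell precursor leukaemia line, in the fraction with high aldehyde dehydrogenase activity (ALDH-positive), as sorted with a fluorescent substrate. Treated SH2 cells (n = 4, sets 1 to 4) carried SH2, a doxycycline-inducible shRNA against the RNA-binding protein IGF2BP1 with a green fluorescent reporter, and were sorted for the reporter after doxycycline. Untreated SH2 cells (n = 4, sets 1 to 4) carried the same construct without doxycycline. Treated control cells (n = 2, sets 2 and 4) and untreated control cells (n = 2, sets 2 and 4) are labelled as a control for doxycycline; whether these cells hold the scrambled shRNA named in the protocol is not given in the labels. Each set came from its own ALDH selection and its own doxycycline treatment. Libraries were made with a QuantSeq kit, which captures the 3′ ends of transcripts. Levels are CPM, gene counts scaled to library depth with TMM factors.

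Libraries held 2210291 to 3370952 reads in genes. SH2 and control libraries, labelled as one line, differed in light chain use. IGKC, the constant region of the kappa light chain, gave at most 0.154% of light chain counts in SH2 libraries and at least 99.7% in control libraries. IGF2BP1 itself was at 15.6 ± 7.68 CPM in treated SH2 cells (SD, n = 4), 31.1 ± 7.23 CPM in untreated SH2 cells (SD, n = 4), 0.382 to 0.961 CPM in treated control cells (n = 2) and 0 to 1.42 CPM in untreated control cells (n = 2). The shRNA, a difference of line or clone, and the group can therefore not be told apart in any comparison of SH2 with control cells. All 13 B-cell precursor markers had reads in every group. The treated SH2 library of set 4 stood apart: its correlations with the remaining SH2 libraries were 0.832 to 0.908, and those among the remaining ones 0.893 to 0.967.

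Summed levels of 11 T-cell markers were 64.5 to 147 CPM in treated SH2 cells, 61.1 to 142 CPM in untreated SH2 cells, 2100 CPM (set 2) and 128 CPM (set 4) in treated control cells, and 1873 CPM (set 2) and 218 CPM (set 4) in untreated control cells. TRBC1 was at 0 throughout, and CD2 and CD5 were at 0 in SH2 cells. Of the 9 markers tested, 6 were lower in treated and 4 in untreated SH2 cells than in control cells (edgeR). Of all genes, 11.1% were called in treated cells (6.48% lower) and 7.84% in untreated cells (4.9% lower). The 2 control sets thus differed widely in these markers, and the values of each member are given by set for that reason. Summed levels of 13 myeloid markers were 6.70 to 20.1 CPM in treated SH2 cells, 7.38 to 12.3 CPM in untreated SH2 cells, 2.24 to 4.20 CPM in treated control cells and 2.17 to 10.4 CPM in untreated control cells, with ELANE and FCGR3B at 0 in every group. In bulk samples, fewer cells of a type and less RNA per cell cannot be told apart.

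The genes belong to unrelated families. IL1R2 is the decoy receptor of interleukin-1: it binds the ligand but lacks the signalling domain of IL1R1. NLRP4 is a NOD-like receptor best known from oocytes, early embryos and testis, and it restrains innate immune signalling. ACTL8 is an actin-like gene of testis that is switched on in some tumours (a cancer-testis gene). DTX3 belongs to the Deltex E3 ubiquitin ligases, a family named for a Notch regulator of the fruit fly. FAM129A, also called NIBAN1, encodes Niban, which is induced by endoplasmic reticulum stress. NAPSB is the transcribed pseudogene of the aspartic protease napsin A, and DHRS2 is a short-chain dehydrogenase/reductase that reduces dicarbonyl compounds. Whether such a gene is on depends in part on its promoter.

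Promoter windows of 300 bases (250 before and 50 after the start; RefSeq, GRCh38.p14) were held for 5 of the 7 genes, with FAM129A under NIBAN1; DTX3 and NAPSB are named only. IL1R2, NLRP4 and ACTL8 are shown as annotated starts of genes whose reads separate the libraries, though reads at 3′ ends do not show which start was used, and DHRS2 is shown as the gene that did not separate them. Capitals mark the motif TATAAA in the IL1R2 and DHRS2 windows, the motif CCAAT in the NLRP4 window and an E-box, CACGTG, in the ACTL8 window. They were searched on both strands and chosen after the sequences were seen, and no window shown held more than 1 of these kinds. IL1R2 is at chr2:101991710-101992009 (plus strand), NLRP4 at chr19:55836290-55836589 (plus strand), ACTL8 at chr1:17755083-17755382 (plus strand) and DHRS2 at chr14:23629865-23630164 (plus strand).
IL1R2: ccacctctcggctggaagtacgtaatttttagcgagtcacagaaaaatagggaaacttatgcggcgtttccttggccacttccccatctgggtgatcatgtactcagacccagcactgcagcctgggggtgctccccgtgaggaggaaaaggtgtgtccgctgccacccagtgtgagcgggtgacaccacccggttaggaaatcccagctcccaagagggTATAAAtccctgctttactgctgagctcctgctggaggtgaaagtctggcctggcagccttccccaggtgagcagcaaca
NLRP4: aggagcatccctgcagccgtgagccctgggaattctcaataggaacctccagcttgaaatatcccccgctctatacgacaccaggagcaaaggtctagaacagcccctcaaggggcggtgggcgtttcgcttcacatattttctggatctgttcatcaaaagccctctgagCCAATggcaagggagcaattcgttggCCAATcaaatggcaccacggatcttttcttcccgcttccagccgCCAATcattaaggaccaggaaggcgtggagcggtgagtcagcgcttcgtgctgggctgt
ACTL8: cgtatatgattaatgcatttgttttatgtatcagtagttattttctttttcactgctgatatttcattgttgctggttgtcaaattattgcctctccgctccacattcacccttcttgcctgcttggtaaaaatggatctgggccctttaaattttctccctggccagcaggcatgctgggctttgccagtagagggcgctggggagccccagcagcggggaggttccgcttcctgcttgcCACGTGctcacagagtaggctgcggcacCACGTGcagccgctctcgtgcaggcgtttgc
DHRS2: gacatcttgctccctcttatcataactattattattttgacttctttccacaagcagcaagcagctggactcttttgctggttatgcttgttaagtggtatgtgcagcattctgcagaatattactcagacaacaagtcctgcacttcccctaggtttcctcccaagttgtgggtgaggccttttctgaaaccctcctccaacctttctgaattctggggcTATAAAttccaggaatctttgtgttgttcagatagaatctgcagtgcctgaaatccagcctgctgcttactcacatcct
None of the motifs searched was common to the windows. TATAAA stood once each in the IL1R2 and DHRS2 windows and is held by 11.53% of the 35114 promoters in the table. CCAAT stood 3 times in the NLRP4 window (34.62% of all promoters hold it), CACGTG 2 times in the ACTL8 window (7.256% of all), and the NIBAN1 window held none of these. The second of the 2 starts that RefSeq gives for IL1R2 held CCAAT 2 times and TATAAA not at all. The DHRS2 window had no CpG dinucleotide and a GC content of 44.0%, against a median of 14 CpG and 58.7% GC over all promoters; NIBAN1 had 18 CpG and 60.7% GC, NLRP4 14 CpG, ACTL8 11, and IL1R2 9 at the first start, which is the one shown, and 1 at the second.

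IL1R2 (ENSG00000115590, chromosome 2, 101991844 to 102028544, plus strand, GENCODE v29 on GRCh38) encodes the decoy receptor. It had 1, 0, 2 and 0 counts in treated SH2 libraries of sets 1 to 4, no count in the 4 untreated SH2 libraries, 643 and 659 counts in treated control libraries of sets 2 and 4, and 455 and 665 in untreated control libraries. In CPM these control values were 206 and 252 with doxycycline and 216 and 240 without. The groups did not overlap, and over all libraries the control-to-SH2 ratio was 1768 (exact 95% interval 604 to 8579). Such intervals, and the bounds used for genes without counts, cover counting error only.

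NLRP4 (ENSG00000160505, chromosome 19, 55836578 to 55881854, plus strand), the germline NOD-like receptor, had no count in any of the 8 SH2 libraries. It had 184 and 205 counts (59.0 and 78.3 CPM) in treated control libraries of sets 2 and 4, and 67 and 160 counts (31.8 and 57.8 CPM) in untreated control libraries. The exact lower limit of its control-to-SH2 ratio was 364.6. Against a floor of 3 counts over the 8 SH2 libraries, its level was 450-fold higher in control cells. The start of NLRP4 lies inside the annotated span of NLRP11, which runs on the opposite strand and had reads in all 12 libraries.

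ACTL8 (ENSG00000117148, chromosome 1, 17755313 to 17827063, plus strand), the testis actin-like gene, had no count in treated SH2 libraries and 2 counts in 1 of the 4 untreated SH2 libraries. Treated control libraries of sets 2 and 4 had 342 and 545 counts (110 and 208 CPM), and untreated ones 197 and 500 counts (93.5 and 181 CPM). Set 4 was the higher control set with and without doxycycline. The control-to-SH2 ratio was 1734 (exact 95% interval 479 to 14334).

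DTX3 (ENSG00000178498, chromosome 12, 57604622 to 57609804, plus strand), the Deltex ligase, had 0, 1, 0 and 13 counts in treated SH2 libraries of sets 1 to 4 and none in untreated SH2 libraries. Treated control libraries had 140 and 170 counts (44.9 and 64.9 CPM in sets 2 and 4), and untreated ones 121 and 100 counts (57.4 and 36.2 CPM). The 13 counts, 4.38 CPM, came from the treated SH2 library of set 4, the library noted above for its low correlations. IL1R2, NLRP4, ACTL8, FAM129A and NAPSB had no count in that library. Over all libraries the control-to-SH2 ratio of DTX3 was 83.1 (exact 95% interval 49.1 to 153). Without that library, an alternative added after seeing the data, 1 SH2 count remained and the ratio was 1014 (exact 95% interval 181 to 40138).

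FAM129A (ENSG00000135842, chromosome 1, 184790724 to 184974550, minus strand), which encodes Niban, had a single count in the 8 SH2 libraries, in the treated library of set 2. It had 81 and 123 counts (25.96 and 47.0 CPM) in treated control libraries of sets 2 and 4, and 58 and 149 counts (27.5 and 53.9 CPM) in untreated ones. With 1 count below it, the control-to-SH2 ratio of 900.1 has a wide interval (161 to 35636, exact 95%).

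NAPSB (ENSG00000131401, chromosome 19, 50333796 to 50344767, minus strand), the napsin pseudogene, had 1 count in the treated SH2 libraries (set 3) and 2 in the untreated ones (set 4). Treated control libraries of sets 2 and 4 had 227 and 382 counts (72.7 and 146 CPM), and untreated ones 239 and 368 counts (113 and 133 CPM). The control-to-SH2 ratio was 888 (exact 95% interval 303 to 4310). NAPSB overlaps NR1H2, a nuclear receptor gene on the opposite strand, and whether strand was used in counting is not given in the sources used here. Of the 50-base words in the last 400 bases of its transcripts 10.64% also occur in NAPSA. How far this affects its counts was not tested. The other 6 genes shared no such word with another gene.

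DHRS2 (ENSG00000100867, chromosome 14, 23630115 to 23645639, plus strand), the dicarbonyl reductase, followed another pattern. It had 4, 10, 6 and 11 counts in treated SH2 libraries (1.68, 3.797, 1.98 and 3.71 CPM in sets 1 to 4) and 9, 5, 22 and 27 counts in untreated SH2 libraries (3.69, 1.48, 7.13 and 8.15 CPM). Treated control libraries had 1 count each (0.320 and 0.382 CPM), and untreated control libraries 2 counts in set 2 and 102 in set 4 (0.949 and 36.9 CPM). Only the untreated control library of set 4 was above the SH2 libraries, and it alone made the control mean the higher one. Without that library the SH2 mean was 717% of the control mean, against 41.0% with it.

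**Figure D1:**
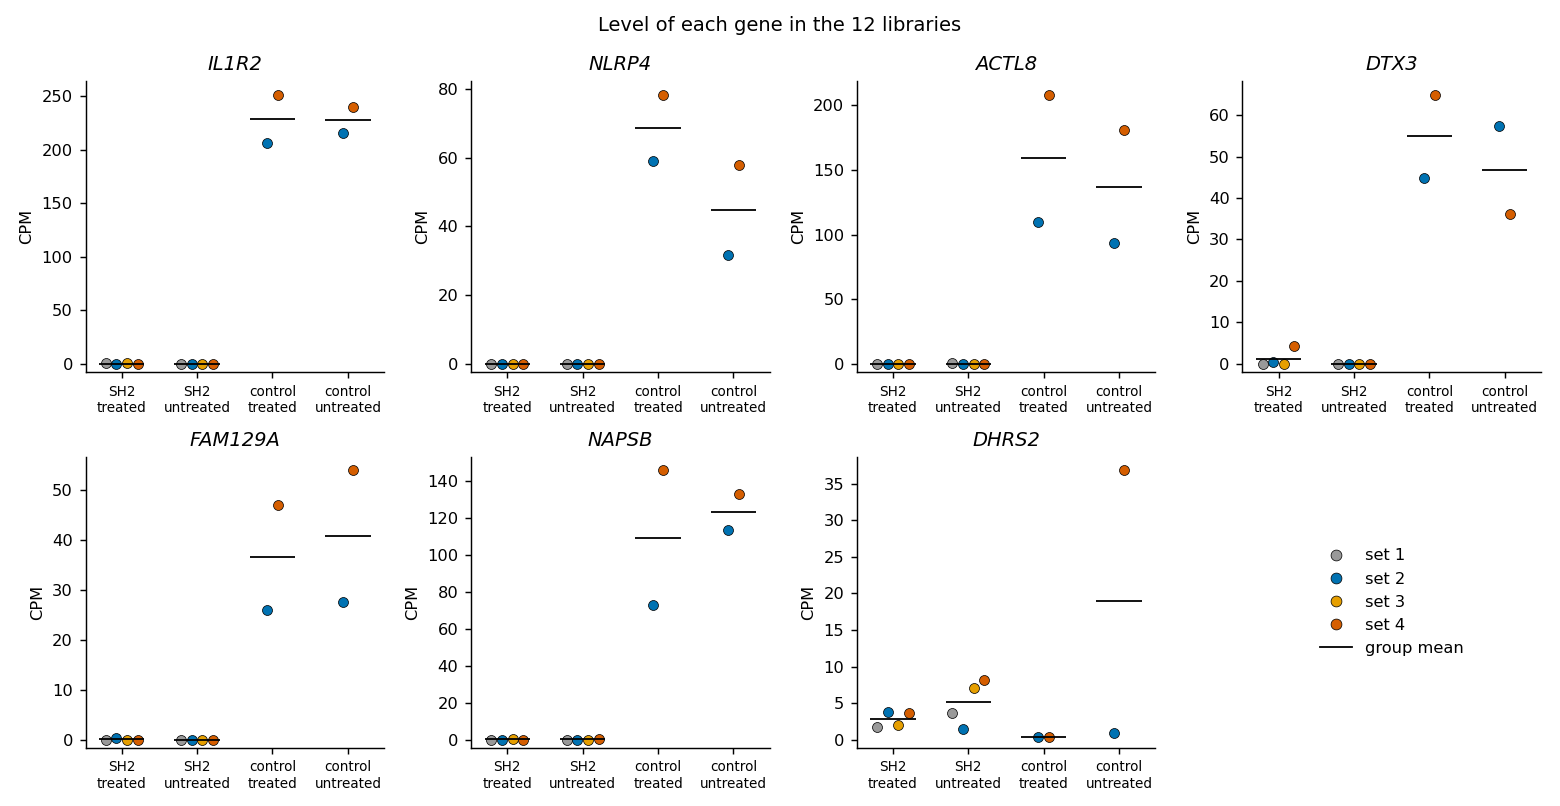
Level of each gene in CPM (y axis) in treated SH2, untreated SH2, treated control and untreated control libraries (x axis); points are libraries coloured by set and bars are group means. The first 6 genes sit at or near 0 in SH2 libraries and between 25.96 and 252 CPM in control libraries, while DHRS2 is high in 1 untreated control library only.

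For 6 of the 7 genes every SH2 library was below every control library, a pattern shown by 8.59% of all genes tested. The stricter pattern of at least 50 counts in each control library and at most 3 counts over the 8 SH2 libraries was met by 19 of 4868 genes (0.39%), and 5 of the 19 are members: IL1R2, NLRP4, ACTL8, FAM129A and NAPSB. Since these values chose the genes, nothing is read from either share. The other 14 genes of that kind included HLA-DQA1 and TUBB, which have more than 1 gene ID in the files, so reads may be split between IDs. The reverse pattern was met by 5 genes (COL18A1, IGLC7, MGST2, TNFRSF18 and TRPM4). These genes were named after their values were seen.

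In SH2 cells, doxycycline could be compared for DHRS2, the gene with reads in all 8 of these libraries. IL1R2, ACTL8, FAM129A and NAPSB had 1 to 3 counts over the SH2 libraries and NLRP4 had none, so a change was not detectable at this depth. DHRS2 averaged 2.79 ± 1.12 CPM in treated SH2 cells and 5.11 ± 3.08 CPM in untreated SH2 cells (SD, n = 4 each). It was lower in the treated library in sets 1, 3 and 4 and higher in set 2, and its log2 fold change was -0.86 ± 0.79 (SE; edgeR quasi-likelihood test, adjusted p = 0.986). That fit was unpaired, with no term for the set, and with the set as a block DHRS2 was not called either. DTX3 averaged 1.19 ± 2.13 CPM in treated SH2 cells and 0 CPM in untreated SH2 cells (SD, n = 4 each), and 13 of its 14 counts lay in 1 library. It passed the filter on low counts through the control libraries, so its fitted value supports no statement on doxycycline: edgeR gave an adjusted p of 0.983 with the filter, 0.00537 without it, and 0.991 with the filter and without that library.

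Of all genes tested, 0.0167% were called in this comparison (2 lower, none higher) and 4.88% had an unadjusted p under 0.05. A count of 0 allows up to 0.272 CPM in the pooled treated SH2 libraries and 0.246 CPM in the pooled untreated ones (3 counts over 4 libraries).

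**Figure D2:**
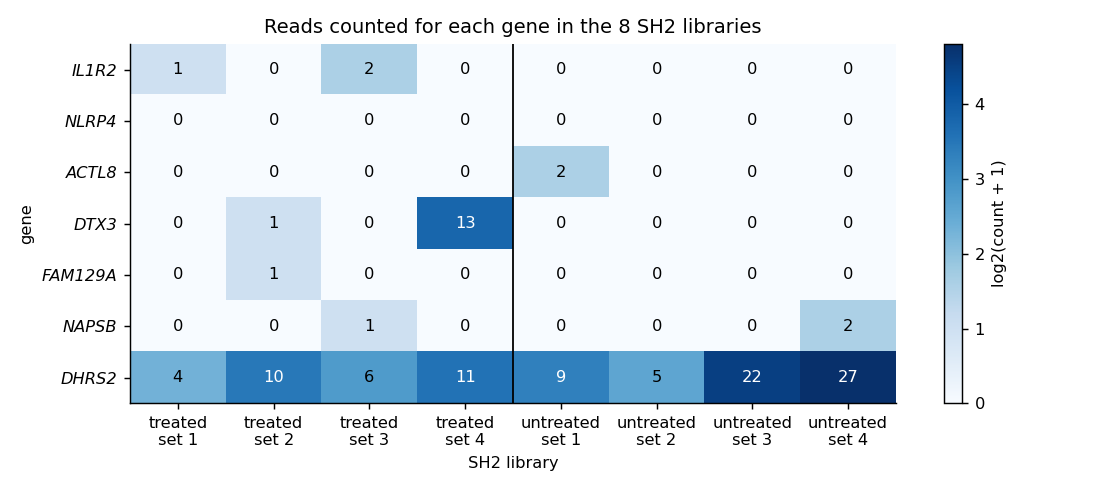
Reads counted for each gene (rows) in the 4 treated and the 4 untreated SH2 libraries (columns), with the colour giving log2(count + 1). DHRS2 has reads in all 8 libraries, DTX3 has 13 in the treated library of set 4, and the remaining cells hold 0 to 2 reads.

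Within control cells, NLRP4 and ACTL8 were higher and FAM129A lower with doxycycline in both sets, and most ratios of the 6 genes lay within the range of other genes. The values, which the choice may have used, are ratios of CPM with exact 95% counting intervals. NLRP4 was at 1.85 (1.39 to 2.49) in set 2 and 1.35 (1.10 to 1.68) in set 4. ACTL8 was at 1.17 (0.981 to 1.40) and 1.15 (1.02 to 1.30), and FAM129A at 0.943 (0.665 to 1.34) and 0.872 (0.681 to 1.12). The intervals of FAM129A in both sets and of ACTL8 in set 2 included 1. IL1R2 stayed closest to 1, at 0.954 in set 2 and 1.05 in set 4.

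DTX3 and NAPSB went in opposite directions in the 2 sets. DTX3 was at 0.781 (0.608 to 1.005) in set 2 and 1.80 (1.40 to 2.32) in set 4, and NAPSB at 0.641 (0.532 to 0.772) and 1.10 (0.948 to 1.27). Over the 4868 genes with at least 50 counts in each control library, the 5th and the 95th percentiles of the ratio were 0.670 and 1.45 in set 2 and 0.671 and 1.69 in set 4. NLRP4 and NAPSB were outside that range in set 2, and DTX3 in set 4. The median ratio of the 4868 genes was 0.991 in set 2 and 1.09 in set 4. DHRS2 was at 0.0104 (0.000260 to 0.0590) in set 4 and 0.338 (0.00572 to 6.49) in set 2, where it had 1 count with doxycycline and 2 without. The fit over all genes called 0% in treated against untreated control cells (edgeR; 82 genes, 0.685%, had an unadjusted p under 0.05; DESeq2 also called 0).

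Within control cells, set 4 was above set 2 in 11 of 12 ratios of the 6 genes, from 1 pair of libraries per condition. The median ratio over 4868 genes was 1.06 with doxycycline and 0.958 without, and the share of all genes above 1 was not computed. Control levels entered the choice of the genes, so nothing is read from this count. ACTL8 was at 1.90 (1.66 to 2.18) with doxycycline and 1.93 (1.64 to 2.29) without, and FAM129A at 1.81 (1.36 to 2.43) and 1.96 (1.44 to 2.70). NAPSB was at 2.01 (1.70 to 2.37) with doxycycline and 1.17 (0.994 to 1.39) without, and NLRP4 at 1.33 (1.08 to 1.63) and 1.82 (1.36 to 2.46). DTX3 was the exception, at 1.45 (1.15 to 1.82) with and 0.630 (0.478 to 0.827) without.

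Among all 4868 genes the 5th and the 95th percentiles of these ratios were 0.523 and 1.91 with doxycycline and 0.549 and 1.65 without. The T-cell marker sum was 128 CPM in set 4 against 2100 CPM in set 2 with doxycycline, and 218 CPM against 1873 CPM without. The part of the T-cell markers in the levels of the 6 genes was not tested.

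**Figure D3:**
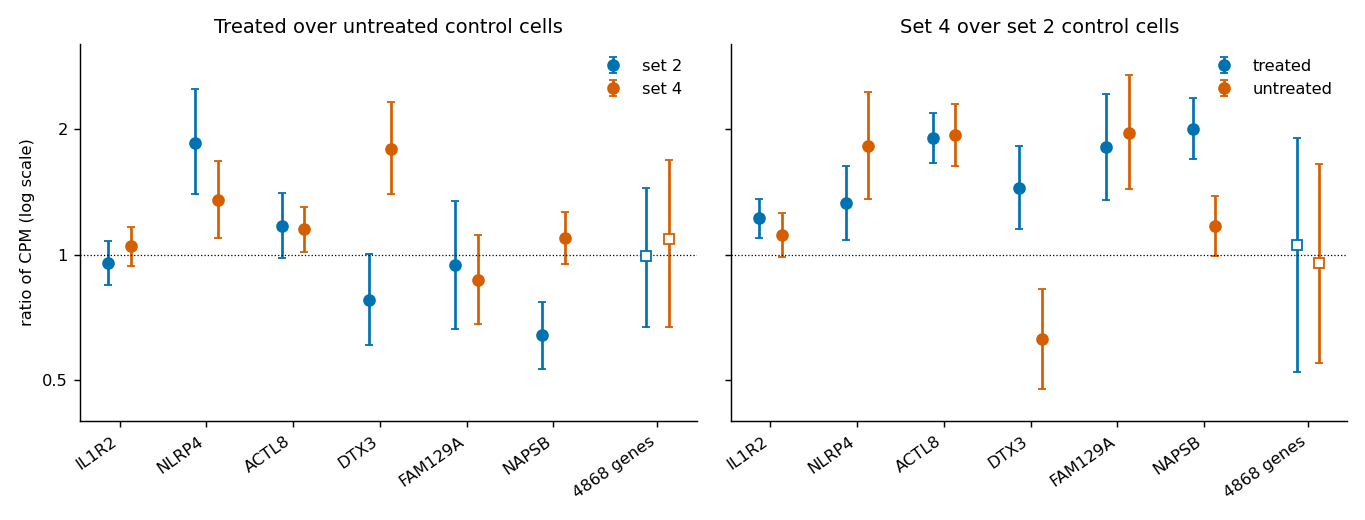
Ratio of CPM (y axis, log scale) within control cells for the 6 genes, treated over untreated by set (left) and set 4 over set 2 by treatment (right); bars are exact 95% counting intervals. Open squares give the median and the 5th to the 95th percentile of 4868 genes: ACTL8 and FAM129A are between 1.81 and 1.96 in set 4 over set 2 in both conditions.

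Across the 12 libraries, log2 CPM of IL1R2, NLRP4, ACTL8, DTX3, FAM129A and NAPSB correlated pairwise at 0.958 to 0.996 (Pearson r), and each correlated with DHRS2 at -0.175 to -0.068. These values describe the gap between SH2 and control libraries, which all points of a group share. The search for similar genes left out the members and genes with clone or placeholder names. Among the genes searched, those most like NLRP4 were PHKA1, a subunit of phosphorylase kinase (r = 0.9998), and MLK4, a kinase of the mixed-lineage group (r = 0.999), over 12 libraries. Neither had a count in SH2 cells, and in control cells PHKA1 had 190 counts and MLK4 69.

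The same MLK4 led for IL1R2 (r = 0.996), ACTL8 (r = 0.997) and FAM129A (r = 0.996). The next were PHKA1 for ACTL8 (0.996) and SPRR2E for FAM129A (0.996). NAPSB was most like IGKC (r = 0.998), the kappa light chain constant region, with 9 counts in SH2 and 13379 in control cells, and then ADAM19 (0.996). DTX3 was most like COTL1 (r = 0.990) and CD82 (0.986), which were lower but present in SH2 cells, at 19.7 to 77.1 CPM against 328 to 504 CPM in control cells for COTL1. Among the genes searched, DHRS2 had none above r = 0.867, that of RARA, a retinoic acid receptor gene, followed by NPIPP1 (0.865).

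Most tested genes around the members were not called, and calls were about as frequent as among all genes. Nothing about the members is read from these counts, and the called neighbours are described singly. GENCODE v29 annotates 104 other genes within 200 kb of the 7 members, of which 44 were tested. In treated SH2 against treated control cells, 5 were lower and 1 higher, where 11.1% of all genes were called (6.48% lower, 4.6% higher; 25% had an unadjusted p under 0.05). In untreated SH2 against untreated control cells, 3 were lower and none higher, where 7.84% of all genes were called (4.9% lower, 2.94% higher; 20.3% had an unadjusted p under 0.05). Both comparisons come from one fit, but share no library.

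Beside DTX3, ARHGEF25, a guanine nucleotide exchange factor, starts 376 bases past its end on the same strand. It had 2, 4, 3 and 1 counts in treated SH2 libraries, 1, 3, 8 and 6 in untreated SH2 libraries, 53 and 41 in treated control libraries and 47 and 35 in untreated control libraries. The groups did not overlap, and the log2 fold change was -4.10 ± 0.59 in treated cells (SE; edgeR, adjusted p = 0.000538) and -3.54 ± 0.56 in untreated cells (SE; edgeR, adjusted p = 0.00122).

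B4GALNT1, which makes complex gangliosides, starts 28733 bases from the DTX3 start. It had no count in the 8 SH2 libraries. Treated control libraries of sets 2 and 4 had 24 and 4 counts, and untreated ones 16 and 8. The exact lower limit of the control-to-SH2 ratio was 29.8. Against the floor of 3 counts over all SH2 libraries, B4GALNT1 was 38.0-fold higher in control cells. It passed the threshold in both comparisons (edgeR, adjusted p = 0.0254 treated and 0.0263 untreated), and lost it without the control library of set 2 (adjusted p = 0.196 treated and 0.182 untreated). In the untreated comparison it also lost it without the control library of set 4 (adjusted p = 0.0537) or the SH2 library of set 2 (0.0584), and in the treated one without the SH2 library of set 3 (0.0505). On the other side, PIP4K2C, a phosphatidylinositol phosphate kinase gene that ends 1204 bases before DTX3, did not pass: its log2 fold change was -0.41 ± 0.57 treated and 0.06 ± 0.58 untreated (SE; edgeR, adjusted p = 0.709 and 0.975). In the treated SH2 library of set 4, where DTX3 had 13 counts, ARHGEF25 had 1 and B4GALNT1 none.

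Near NAPSB, SPIB, an ETS transcription factor of B cells and plasmacytoid dendritic cells, lies 74171 bases away. It had 3, 7, 16 and 36 counts in treated SH2 libraries, 5, 15, 13 and 25 in untreated SH2 libraries, 908 and 934 in treated control libraries, and 806 and 790 in untreated control libraries. SPIB was lower in SH2 cells by a log2 fold change of -5.88 ± 0.57 treated (SE; edgeR, adjusted p = 2.45e-05) and -6.15 ± 0.57 untreated (SE; edgeR, adjusted p = 2.42e-05). SPIB and ARHGEF25 passed under every alternative run. The genes next to NAPSB itself did not pass: NR1H2 was at -0.21 ± 0.41 and 0.01 ± 0.41, and NAPSA, the intact protease gene, at 0.00 ± 0.81 and -1.42 ± 0.89 (log2 fold change, SE, treated and untreated; edgeR, adjusted p of 0.428 or more).

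NLRP11, the NOD-like receptor gene whose start lies 222 bases from that of NLRP4 on the opposite strand, was on in both kinds of cells. It was at 46.5, 97.6, 127 and 30.7 CPM in treated SH2 libraries, 51.2, 88.4, 138 and 40.7 CPM in untreated SH2 libraries, 172 and 126 CPM in treated control libraries, and 104 and 80.6 CPM in untreated control libraries. SH2 and control libraries overlapped with and without doxycycline. Its log2 fold change was -0.99 ± 0.52 treated (SE; edgeR, adjusted p = 0.266) and -0.22 ± 0.54 untreated (SE; edgeR, adjusted p = 0.888), and with the set as a block it passed in treated cells (-1.39 ± 0.29, edgeR, adjusted p = 0.00509).

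A few further neighbours passed in treated cells and not in untreated cells, and the difference between the comparisons passed for no gene tested (edgeR interaction test, smallest adjusted p 0.999998). ZNF581 near NLRP4 (-1.09 ± 0.32, adjusted p = 0.0449) and LRRC4B near NAPSB (-3.36 ± 0.98, adjusted p = 0.0409) were lower, and RNF2 near FAM129A (1.45 ± 0.43, adjusted p = 0.0430) was higher (log2 fold change, SE; edgeR). Each lost the threshold without single treated SH2 libraries (any set for ZNF581 and LRRC4B, sets 1, 2 or 3 for RNF2) and without the treated control library of set 4 for ZNF581 (-0.59) and LRRC4B (-2.01) or of set 2 for RNF2 (0.97). A fit with the set as a block took RNF2 to an adjusted p of 0.0544 (edgeR). None of the tested neighbours of IL1R2, ACTL8 and DHRS2 passed; the nearest were MAP4K4, ARHGEF10L and AP1G2.

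**Figure D4:**
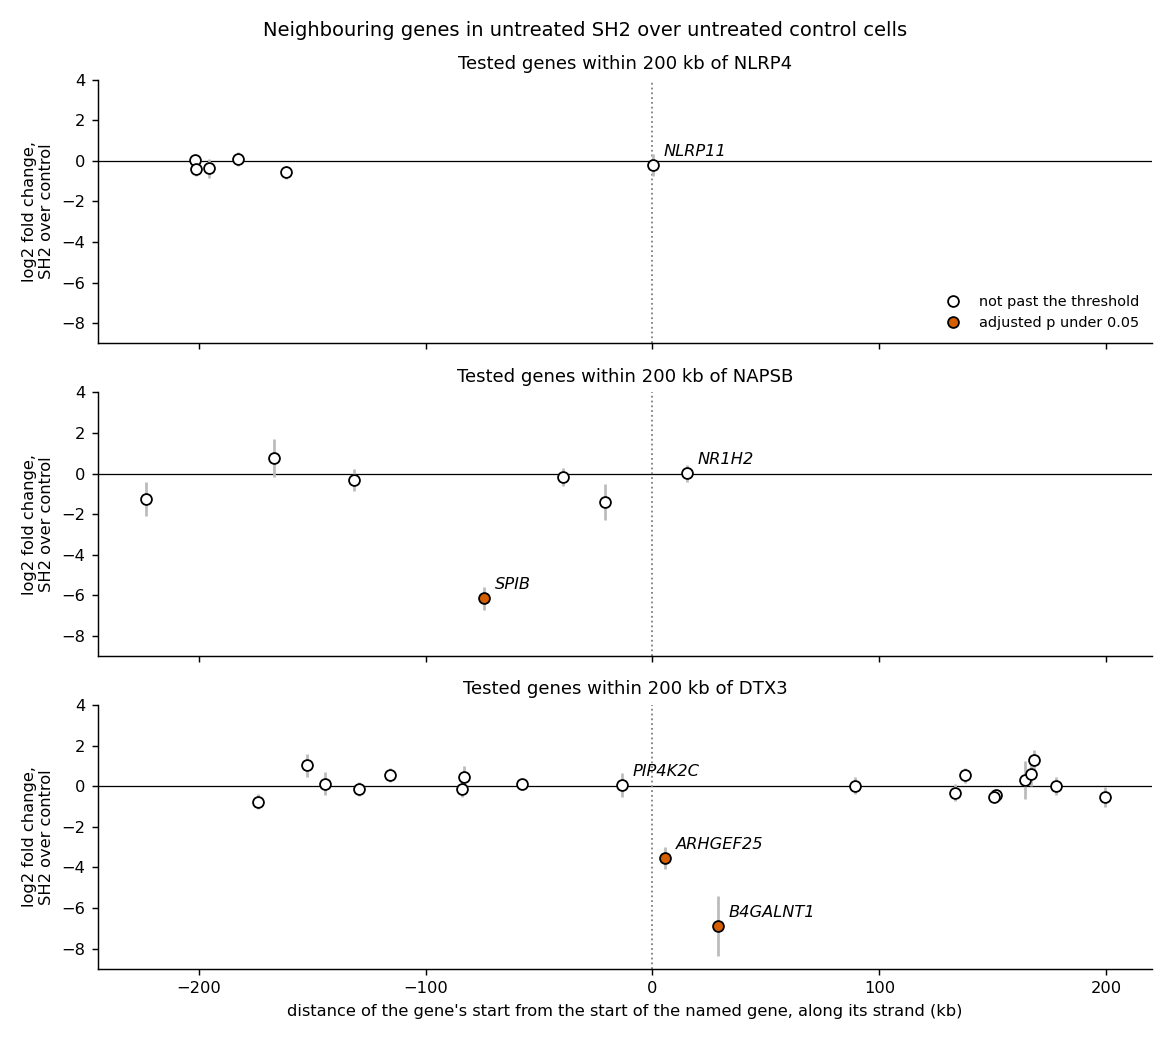
Log2 fold change of untreated SH2 over untreated control cells (y axis; bars are SE) for tested genes within 200 kb of NLRP4, NAPSB and DTX3, by the distance of their starts along the member's strand (x axis, kb). Filled points passed an adjusted p of 0.05: SPIB at -6.15 near NAPSB, and ARHGEF25 at -3.54 and B4GALNT1 near DTX3, whose fitted value against SH2 libraries with no count is no bound, while NLRP11 at the start of NLRP4 is at -0.22.

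The families of the members were compared through 8 lists holding 174 genes. No list had a gene called by doxycycline in SH2 cells or in control cells (edgeR). For IL1R2, 7 of 19 genes of the interleukin-1 receptor family, its ligands and adaptors were tested, and none passed in either comparison of SH2 with control cells. IL1R1, the signalling counterpart of IL1R2, and the ligands IL1A and IL1B were not among those tested. The closest to the threshold was TRAF6, the ubiquitin ligase downstream of the receptor, at 1.12 ± 0.45 treated and 1.29 ± 0.45 untreated (log2 fold change, SE; edgeR, adjusted p = 0.131 and 0.104).

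For NLRP4, 9 of 22 NOD-like receptor and inflammasome genes were tested, and 2 were higher in SH2 cells in both comparisons (4.6% of all genes were higher in treated and 2.94% in untreated cells): CASP1, the inflammasome protease, and PYCARD, its adaptor. CASP1 was at 18.4, 25.1, 22.7 and 48.2 CPM in treated SH2 libraries, 20.5, 16.9, 21.1 and 28.4 CPM in untreated SH2 libraries, 3.205 and 1.91 CPM in treated control libraries and 2.85 and 3.62 CPM in untreated control libraries. The groups did not overlap, and the log2 fold change was 3.45 ± 0.52 treated and 2.72 ± 0.50 untreated (SE; edgeR, adjusted p = 0.000709 and 0.00381). PYCARD was at 2.25 ± 0.52 and 2.42 ± 0.52 (SE; edgeR, adjusted p = 0.0116 and 0.01001). Without the control library of set 2, PYCARD lost the threshold in treated cells (adjusted p = 0.138) and both lost it in untreated cells (0.0673 for CASP1 and 0.153 for PYCARD). PYCARD also lost it without the control library of set 4, at 0.0532 treated and 0.0558 untreated. The list's median log2 fold change was 1.10 treated and 0.28 untreated, against 0.04 and 0.03 over all genes, and with the set as a block NLRP1 (1.04) and NLRP11 (-1.39) passed too in treated cells.

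For ACTL8, 4 of 30 germline and cancer-testis genes were tested and none passed. ACRBP, an acrosin-binding protein gene, was at 1.63 ± 0.80 treated and 1.89 ± 0.95 untreated (log2 fold change, SE; edgeR, adjusted p = 0.226 and 0.290). Of 17 actin-like and actin-related genes 9 were tested, and ACTR3, a subunit of the Arp2/3 actin-nucleating complex, was lower in untreated SH2 cells (-0.84 ± 0.24, edgeR, adjusted p = 0.0453). In treated cells it was at -0.70 ± 0.24 (edgeR, adjusted p = 0.0806). It lost the threshold when any single library was left out.

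For DTX3, 24 of 27 Deltex and Notch pathway genes were tested. In treated cells 5 were higher and 4 lower in SH2, and in untreated cells 3 were higher and 3 lower (11.1% of all genes were called in treated and 7.84% in untreated cells), with list medians of -0.16 and -0.19 against 0.04 and 0.03 over all genes. Among ligands DLL3 (3.08 ± 0.40 treated, adjusted p = 0.000224; 2.02 ± 0.37 untreated, adjusted p = 0.00364) and JAG2 (2.03 ± 0.59 and 2.35 ± 0.63, adjusted p = 0.0404 and 0.0337) were higher in SH2 cells (log2 fold change, SE; edgeR). The Deltex relative DTX4 was lower in SH2 cells (-2.81 ± 0.54 treated, adjusted p = 0.00438; -2.95 ± 0.56 untreated, adjusted p = 0.00463). DTX1, DTX2 and DTX3L did not pass, with log2 fold changes between -0.88 and -0.15 in treated cells.

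Transcription factors that Notch turns on went in different directions. HES1 was at 2.51, 2.66, 8.24 and 10.1 CPM in treated SH2 libraries, 1.23, 4.45, 20.1 and 7.54 CPM in untreated SH2 libraries, 208 and 233.043 CPM in treated control libraries and 210 and 100 CPM in untreated control libraries. It was lower in SH2 cells, at -5.19 ± 0.70 treated and -4.19 ± 0.68 untreated (log2 fold change, SE; edgeR, adjusted p = 0.000389 and 0.00164), and HEY2 was higher, at 3.13 ± 0.56 and 3.42 ± 0.62 (adjusted p = 0.00267 and 0.00327).

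HES4 had 1 count over the SH2 libraries, against 156 and 7 in treated control libraries (sets 2 and 4) and 146 and 11 in untreated ones, a control-to-SH2 ratio of 701 (exact 95% interval 125 to 27765). It passed in both comparisons (edgeR, adjusted p = 0.0107 treated and 0.00701 untreated). HES4 was higher in control set 2 than in set 4, as was the T-cell marker sum. So was the receptor NOTCH3, which was at 45.8 and 10.3 CPM in treated control libraries of sets 2 and 4 and 28.9 and 5.42 CPM in untreated ones, and was lower in treated SH2 cells (-2.55 ± 0.71, edgeR, adjusted p = 0.0345). The part of the T-cell markers in these results was not tested. MAML3, a coactivator of Notch (2.53 ± 0.54, adjusted p = 0.00809), and LFNG, a glycosyltransferase that modifies Notch receptors (3.30 ± 0.84, adjusted p = 0.0212), were higher in treated SH2 cells (log2 fold change, SE; edgeR). Without the control library of set 2 the list's 9 calls became 5 in treated cells and its 6 calls became 1, HES1, in untreated cells. JAG2 lost the threshold without either control library in both comparisons, without the SH2 library of set 2 or 3 in both, and without that of set 4 in treated cells. LFNG lost it without the treated control library of set 4 (adjusted p = 0.160), HES4 without the treated SH2 library of set 2 (0.0547), and NOTCH3 without any single SH2 library (0.0578 to 0.0769).

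For FAM129A, all 17 genes of the Niban family and the eIF2-alpha stress pathway were tested and none passed, with medians of 0.59 treated and 0.61 untreated. The smallest p-values were those of EIF2S1, which encodes eIF2-alpha itself, in treated cells (1.05 ± 0.33, adjusted p = 0.0593) and ATF3, a stress-induced transcription factor, in untreated cells (1.34 ± 0.50, adjusted p = 0.136; log2 fold change, SE; edgeR). With the set as a block, 5 of these genes were higher in treated and 6 in untreated SH2 cells and none lower (18.1% and 12.6% of all genes were called with the block). Among them were TRIB3, a pseudokinase induced by ATF4 (1.61 and 1.98), ASNS, asparagine synthetase (1.39 and 1.22), and EIF2S1 (1.11 and 0.92; edgeR, adjusted p of 0.0450 or less). Leaving out the treated SH2 library of set 1 gave 3 calls, all higher.

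For NAPSB, 11 of 15 aspartic protease and cathepsin genes were tested. In treated cells 2 were lower and 1 higher in SH2, and in untreated cells 3 were lower, where 11.1% and 7.84% of all genes were called. BACE2, a membrane aspartic protease, was at 0, 0.759, 0.329 and 1.35 CPM in treated SH2 libraries, 0, 0.890, 0.648 and 1.21 CPM in untreated SH2 libraries, 67.3 and 56.2 CPM in treated control libraries and 72.6 and 44.1 CPM in untreated control libraries. Its log2 fold change was -6.52 ± 0.59 treated and -6.24 ± 0.57 untreated (SE; edgeR, adjusted p = 1.24e-05 and 1.68e-05). CTSH, a lysosomal cysteine protease gene, was also lower in both (-4.54 ± 0.38 and -3.60 ± 0.35, adjusted p = 6.33e-06 and 3.02e-05), and for both genes SH2 and control libraries did not overlap.

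CTSB, cathepsin B, was higher in treated SH2 cells (1.52 ± 0.39, adjusted p = 0.0207) and CTSZ, cathepsin Z, lower in untreated SH2 cells (-1.88 ± 0.48, adjusted p = 0.0268; log2 fold change, SE; edgeR). Both lost the threshold without either control library of the comparison, and CTSZ also without the untreated SH2 library of set 2. With the set as a block LGMN (1.13) and CTSZ (-1.39) were added in treated cells, giving 5 calls.

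For DHRS2, 18 of 27 short-chain dehydrogenase/reductase genes were tested. DHRS7 was lower in treated SH2 cells (-1.08 ± 0.29, adjusted p = 0.0299) and HSD17B11, a steroid dehydrogenase of lipid droplets, higher in untreated SH2 cells (2.05 ± 0.59, adjusted p = 0.0497; log2 fold change, SE; edgeR). Both calls were lost without the control library of set 2 (adjusted p = 0.327 for DHRS7 and 0.381 for HSD17B11) and when an SH2 library was left out (treated set 2 or 3 for DHRS7, any untreated set for HSD17B11). The list's medians were 0.37 treated and 0.36 untreated, and with the set as a block HSD17B10 was higher in both comparisons (1.34 and 1.14). With the block HSD17B11 was higher in treated cells too (1.99).

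**Figure D5:**
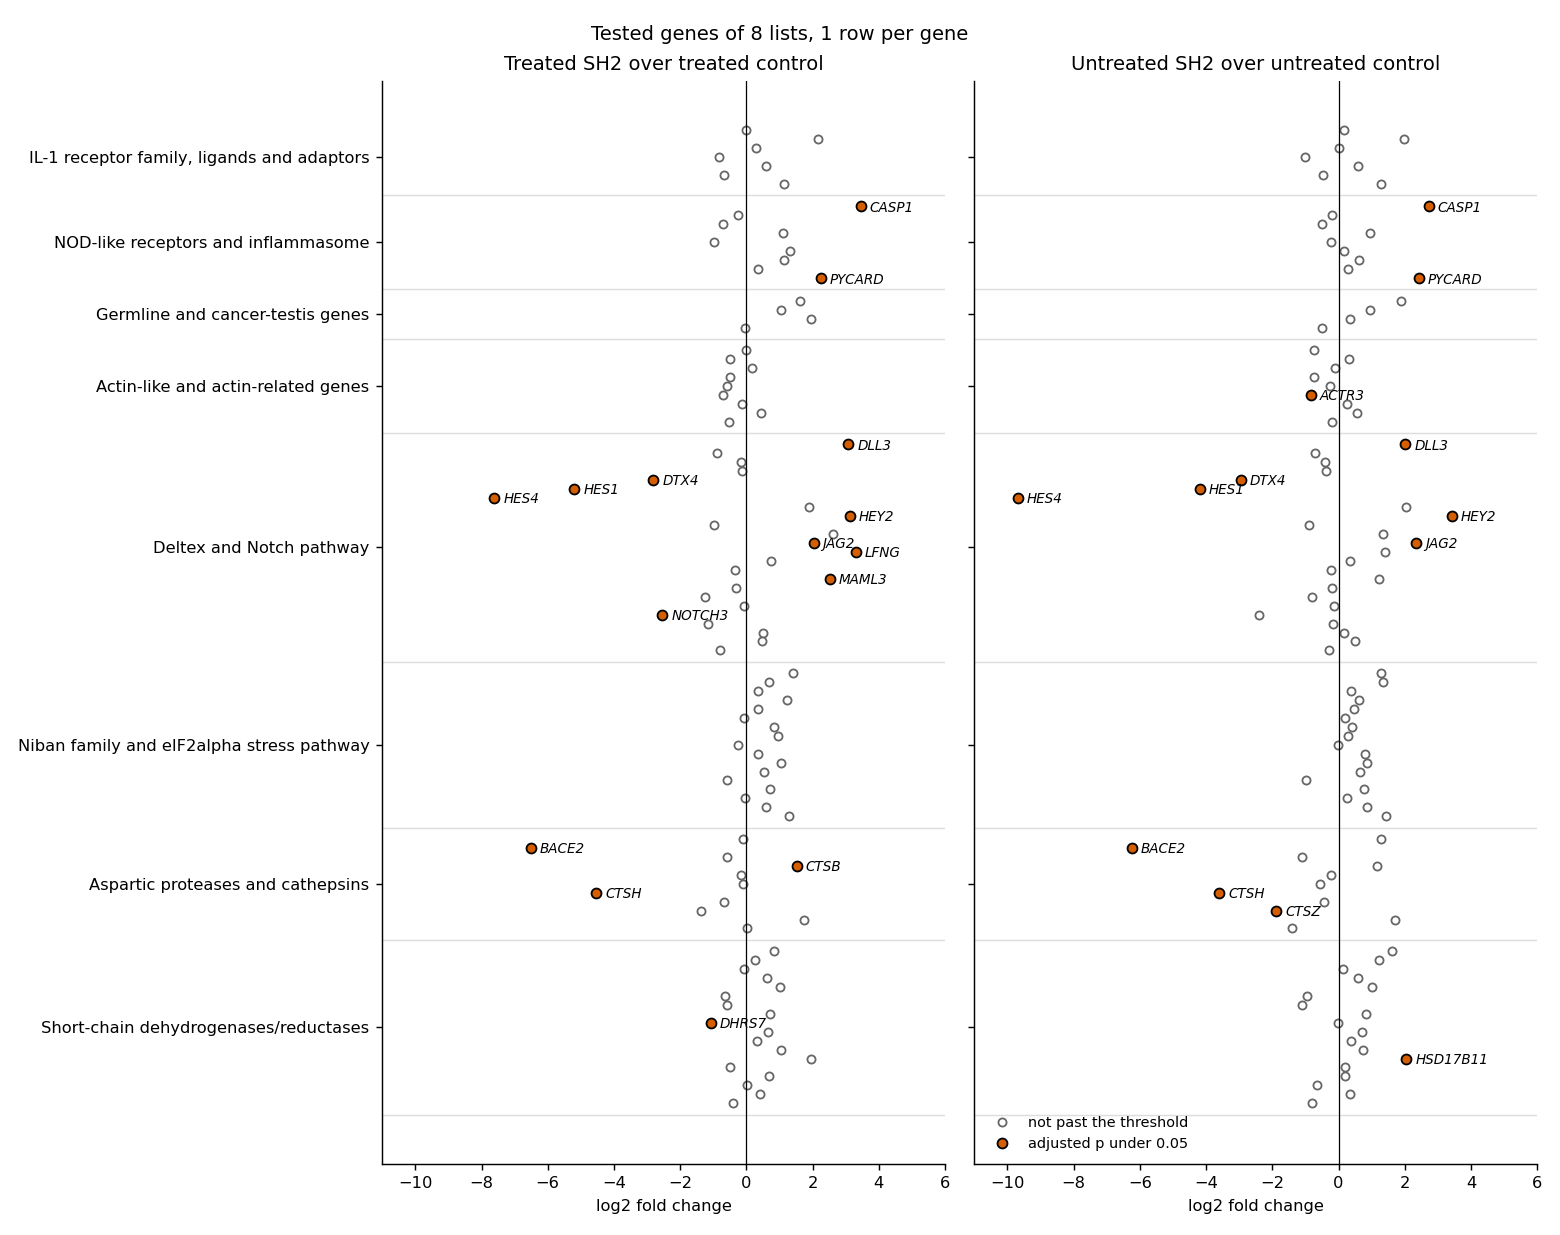
Log2 fold change (x axis) of each tested gene in the 8 lists (y axis, 1 row per gene) in treated SH2 over treated control cells and untreated SH2 over untreated control cells; filled points passed an adjusted p of 0.05. Calls stand in both directions in the Deltex and Notch list, from HES4, whose fitted value rests on 1 SH2 count, to LFNG at 3.30 in treated cells, and the interleukin-1, germline and Niban lists hold none.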

How the data were processed

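RNA of 12 libraries was deposited as whole read counts per gene, made by the authors with HTSeq; the tools STAR, FastQC and DESeq2 and build GRCh38 (hg38) are also named, per the submitters' processing notes, without versions. The authors' deposited normalized signal equalled those counts times a constant per library (100% of values whole, tolerance 0.01). HTSeq summary lines (not unique 42.2% to 63.8%, no feature 3.25% to 7.73%, ambiguous 1.11% to 1.62%) were kept out. Counts were fitted in R 4.3.3 with edgeR 4.0.16 (robust quasi-likelihood test): filterByExpr by group with minimum count 10, TMM, all 12 libraries, 1 term per group, Benjamini-Hochberg adjustment, threshold 0.05. Levels and exact binomial intervals were computed in Python 3.11.15; correlations used log2 CPM with a prior count of 3.

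Members and lists were chosen with earlier results of these data known. Named were the members and the 2 most correlated genes of each, with members and clone or placeholder names left out. Also named were the 4 list genes of smallest p at most plus those called, and neighbours within 200 kb that were called or nearest. HLA-DQA1, TUBB, DTX1, DTX2, DTX3L, the reverse set and genes passing only with the block were named outside that rule. The second gene for IL1R2 is not reported here. Replicates were separate selections per the design text, and no pair agreed within sampling noise (chi-square per degree of freedom 8.39 to 47.7). Same-set SH2 libraries deviated together (r = 0.188 to 0.663, other sets -0.548 to 0.272), with set 2 as an exception. Treated SH2 set 2 followed untreated SH2 set 1 (0.272) more closely than untreated SH2 set 2 (0.188). Set numbers, which come from the labels, were taken to pair the samples. Alternatives were DESeq2 1.42.0 size factors and Wald test, no filter, the set as a block, the compared groups alone, plain CPM, the authors' normalized values, SH2 sets 2 and 4 only, each library left out and, added after seeing the data, the recovered whole reads and the DTX3 ratio without 1 library. The fit was also run on counts simulated from its own means and dispersions, without set effects, and no result here rests on that run.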

Additional observations from a re-analysis of the deposited data

Results flagged for a closer look

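Among 14 groups of 4 SH2 libraries, 5 held a library far from the other 3. Groups with no count in any library could not be flagged. These were NLRP4 treated and untreated, ACTL8 treated, and IL1R2, DTX3 and FAM129A untreated. The usual chance rate of about 1 in 20 groups does not hold for counts this low, where a single read beside libraries at 0 is enough. DTX3 stood at 4.38 CPM in the treated library of set 4, from 13 counts, with the next library at 0.380 CPM. ACTL8 stood at 0.820 CPM in the untreated library of set 1, FAM129A at 0.380 CPM in the treated library of set 2, and NAPSB at 0.329 CPM in the treated library of set 3 and at 0.603 CPM in the untreated library of set 4. In these last 4 groups the other 3 libraries had no count and the value rests on 1 or 2 reads.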

How the results depend on the processing

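The mean level of DHRS2 in SH2 cells ran from 31.0% to 717% of the control mean (41.0% with all libraries) over the left-out libraries. In treated against untreated SH2 cells, 2 genes were called, against 47 with no filter, 6 with the set as a block, 14 by DESeq2, 0 on the 2 groups alone and 0 to 3 with a library left out. In treated SH2 against treated control cells 1326 became 2171 with the block, 789 on the 2 groups alone and 645 to 1462 with a library left out. Untreated, 938 became 1449 with no filter, 1505 with the block and 343 to 853 with a library left out. In control cells the 0 calls became 3 with no filter. NLRP11 untreated turned from -0.22 to 0.0039 (log2) without the untreated SH2 library of set 4, within -0.65 to 0.0039 over the left-out libraries. Calls of the 8 lists that moved with the block stand beside their results, with many of those that moved with a library left out. The block changed no call of DHRS2, and the cause of these moves was not tested. For 5 of the 7 members, with at most 3 counts over the SH2 libraries, a change among those libraries was not detectable at this depth.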
